A study of Homo sapiens with 2 samples.

Results

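The 46 mRNAs described here encode kinetochore proteins, spindle checkpoint proteins and regulators of mitosis. They were taken from the deposited expression table by gene symbol, and all 46 listed members were found among its 13075 genes. All 46 stood at 5 FPKM or more in at least 1 library (FPKM: fragments per kilobase, relative to the sum of the library), a floor that 11990 genes of the table passed. The study asked which RNAs hold cleavage complexes of TOP3B, a topoisomerase that acts on RNA as well as DNA. Both libraries came from HEK293 cells, a human embryonic kidney line, at passage 15, transfected with FLAG-tagged R338W TOP3B, a form known to stay trapped on nucleic acid. The input library was made without an antibody, and the RIP (RNA immunoprecipitation) library from RNA recovered under native conditions with the monoclonal ANTI-FLAG M2 antibody. Each group held 1 library, so every difference given here lies between 2 libraries and has no replicate check and no test. No precipitation from untransfected cells was analysed here.

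At mitosis each pair of sister chromatids is held to the spindle by kinetochores, which assemble on centromeric chromatin marked by the histone variant CENPA. An inner layer of CENP proteins carries the NDC80 complex, which grips microtubules, and an outer corona of large motor and scaffold proteins. Kinetochores without attached microtubules start the spindle checkpoint, which holds back CDC20 and the anaphase-promoting complex. Once all are attached, cyclin B and securin are destroyed, separase cuts cohesin and the sister chromatids part. Dividing lines such as HEK293 express these genes, many of them with a peak late in the cell cycle.

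Depth estimated from the steps between low FPKM values was about 24200000 fragments in the RIP against 15000000 in the input. At these depths the members rested on about 328 to 37251 fragments each. The counting error of a member's log2 ratio was then 0.015 to 0.11 (SE), which covers neither library preparation nor precipitation. The mRNA of the bait, TOP3B, stood at 30666 FPKM in the RIP against 15062 in the input. Of 8 embryonic kidney markers 4 were in the table, with summed levels of 18.7 FPKM in the RIP against 20.2 in the input. Of 10 markers of kidney tubule and glomerulus only LRP2 was in the table, and of 6 blood markers 0, but no source used here says how the table was filtered.

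The mitotic mRNAs went both ways and mostly stayed near the input. The ratio used throughout is log2((RIP + 1)/(input + 1)) in FPKM, which understates differences of low genes. PRC1, BUB1B and ESPL1 exceeded the input by at least 2-fold, MZT1 alone was at least 2-fold lower, and the other 42 lay between these limits. Among all genes past the floor 4.9% were at least 2-fold higher and 2.5% at least 2-fold lower, and among coding genes alone 3.58% and 0.42%. The members' 3 and 1 of 46 are therefore near this background. Their median ratio was 0.32 (quartiles -0.18 and 0.58), against 0.13 (quartiles -0.25 and 0.50) for all genes past the floor. Of the 46 members 31 had a ratio above 0, whereas 58.7% of all genes did, and 26 lay above the median of all genes. Ratios centred on that median, or rescaled to a common total without mitochondrial RNA, rRNA, snRNA, snoRNA, scaRNA, other small structural RNAs (7SK, 7SL, Y and vault RNA) and TOP3B, left PRC1 as the one member at least 2-fold higher, MZT1 as the one lower, with 26 members above 0 after centring and 28 after rescaling. Over all genes the 588 higher and 300 lower became 365 and 450 after centring and 452 and 368 after rescaling. Without these classes the remaining genes summed to 562396 FPKM in the RIP against 533298 in the input, so that rescaling shifted log2 ratios by -0.08. Leaving out the abundant RMRP and RPPH1 as well, a choice made after seeing the data, would shift them by -0.16, further than centring does, so the rescaled counts depend on the classes left out. Members were expressed above the typical coding gene, with a median level of 38.3 FPKM in the RIP against 36.2 in the input, against 20.9 and 18.9 for coding genes past the floor.

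**Figure D1:**
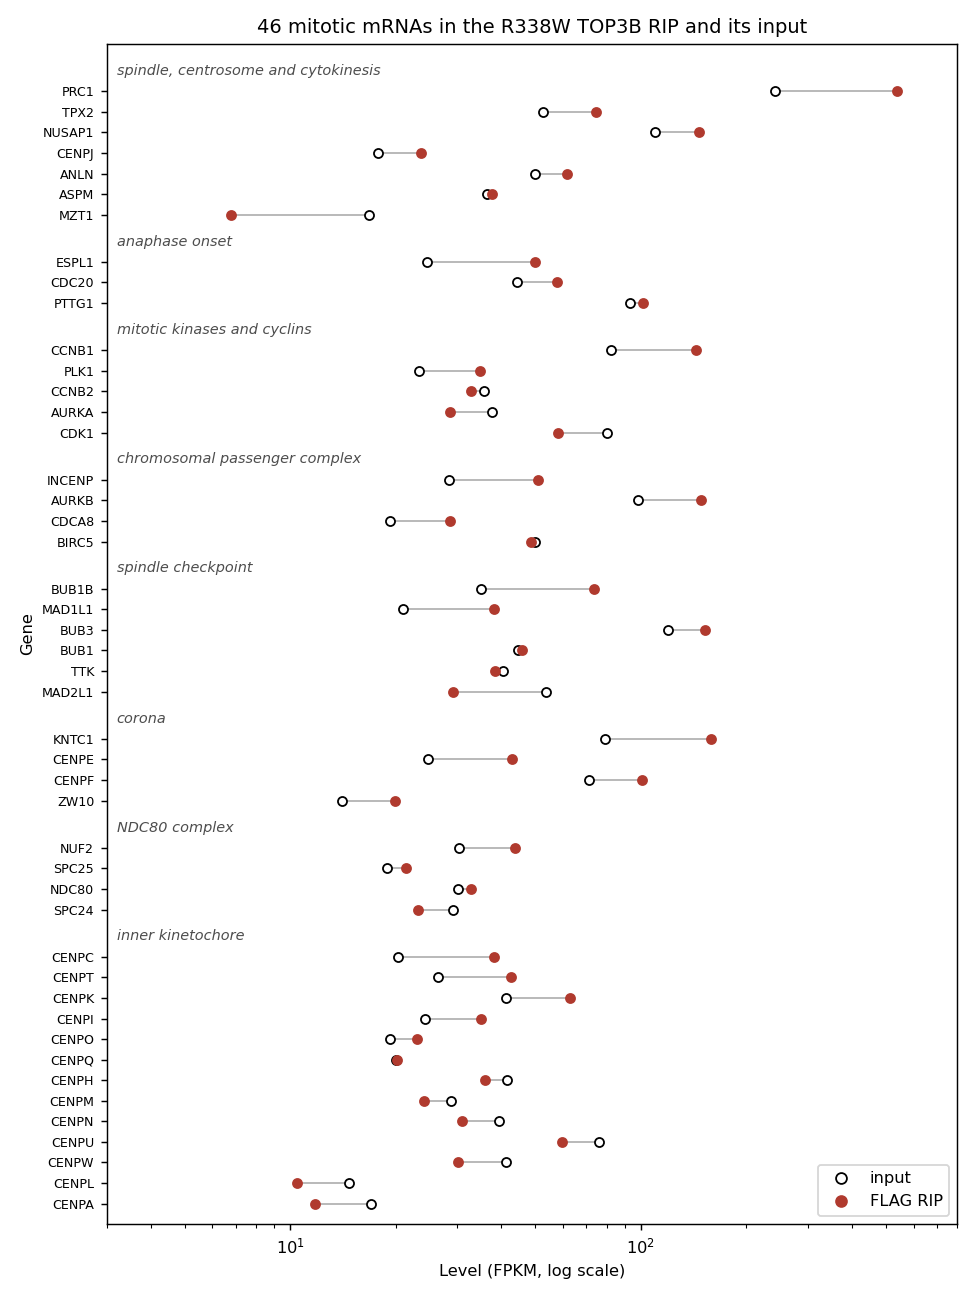
Level of each of the 46 mitotic mRNAs in the input (open circles) and the FLAG RIP (filled circles) in FPKM on a log axis, grouped by role; each circle is 1 library. PRC1 is the most abundant member in both libraries, at 242 FPKM in the input and 536 in the RIP, and MZT1 is the lowest in the RIP at 6.78.

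The ends of the ranking are held by PRC1 and MZT1, which are shown for that reason. PRC1, which bundles antiparallel microtubules at the spindle midzone, has a coding sequence of 1860 bases with 14 exon junctions (GENCODE 29 transcript on GRCh38 chromosome 15, minus strand, gene at 90966038 to 90995629). MZT1, a small protein that helps to recruit gamma-tubulin to centrosomes, has 246 bases with 2 junctions (chromosome 13, minus strand, gene at 72708357 to 72727687). The whole coding sequence of MZT1 without its stop codon and the first 246 bases of that of PRC1 are given 5′ to 3′ in coding sense, with capitals for the bases on either side of each junction. Stretches of equal length are shown, so the difference in coding length is to be read from the totals:
MZT1: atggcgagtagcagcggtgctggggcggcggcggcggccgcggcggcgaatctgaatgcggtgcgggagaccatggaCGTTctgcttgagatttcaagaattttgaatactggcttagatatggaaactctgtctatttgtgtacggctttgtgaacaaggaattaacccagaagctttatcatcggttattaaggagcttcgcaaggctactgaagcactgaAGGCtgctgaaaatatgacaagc
PRC1: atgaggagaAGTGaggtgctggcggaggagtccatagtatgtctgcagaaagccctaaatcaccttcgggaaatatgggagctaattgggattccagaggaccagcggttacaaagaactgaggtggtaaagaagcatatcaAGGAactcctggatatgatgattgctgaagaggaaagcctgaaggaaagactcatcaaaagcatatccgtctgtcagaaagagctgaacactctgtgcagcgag

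The inner kinetochore, the layer that sits on centromeric chromatin, was split between the directions. Of its 13 mRNAs 6 had a ratio above 0 (5 after either scaling named above, where CENPQ turns negative) and 7 below, with a median of -0.20 and 0 past the 2-fold limit in either direction. With a floor of 20 FPKM, which leaves out CENPA and CENPL, the median was 0.01, on the other side of 0. CENPC, the scaffold that links centromeric nucleosomes to the outer kinetochore, was the highest at 38.2 FPKM in the RIP against 20.3 in the input, a log2 ratio of 0.88. CENPT, which offers a further attachment site for the NDC80 complex, stood at 42.7 FPKM in the RIP against 26.4 in the input (0.67). CENPK stood at 62.9 and 41.2 FPKM (0.60), and CENPI, its partner in the same subcomplex, at 35.0 and 24.2 FPKM (0.51). These 4 were the inner kinetochore mRNAs with ratios above 0.5. CENPO was slightly higher in the RIP, at 23.1 against 19.2 FPKM (0.25), and CENPQ, which belongs to the same subcomplex, was level at 20.2 and 20.03 FPKM (0.01).

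The other 7 inner kinetochore mRNAs were lower in the RIP. CENPA itself, the histone variant that marks the centromere, stood at 11.8 FPKM in the RIP against 17.0 in the input, a log2 ratio of -0.49 and the lowest of the group. CENPL stood at 10.5 and 14.7 FPKM (-0.45) and its binding partner CENPN at 30.96 and 39.5 FPKM (-0.34). CENPW, a small histone-fold protein, stood at 30.1 FPKM in the RIP against 41.3 in the input (-0.44). Its histone-fold partner CENPT is named above with a ratio of 0.67, so the mRNAs of these partners lay on opposite sides of 0. CENPU stood at 59.5 and 76.1 FPKM (-0.35), CENPM at 24.1 and 28.7 FPKM (-0.25) and CENPH at 36.1 and 41.5 FPKM (-0.20). CENPH and CENPK, which bind each other, likewise stood on opposite sides of 0, at -0.20 and 0.60.

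The NDC80 complex, the main microtubule-binding unit of the kinetochore, had 4 mRNAs with a median ratio of 0.15, and the ratio of NDC80 itself turned negative after centring on the median gene. NUF2 stood at 43.8 FPKM in the RIP against 30.3 in the input (0.52), and NDC80, with which it pairs, at 32.8 and 30.1 FPKM (0.12). The other pair of the complex are the small proteins SPC24 and SPC25. SPC25 stood at 21.4 and 18.9 FPKM (0.17), and SPC24, the one member of the complex below the input, at 23.2 and 29.2 FPKM (-0.32).

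All 4 corona mRNAs, which encode large proteins of the outermost kinetochore, were higher in the RIP, with a median ratio of 0.63. KNTC1, the ROD subunit of the complex that brings checkpoint proteins and dynein to kinetochores, stood at 158 FPKM in the RIP against 79.0 in the input. Its log2 ratio of 0.99 lay just under the 2-fold limit. ZW10, a further subunit of that complex, stood at 19.9 and 14.1 FPKM (0.47). CENPE, a kinesin motor that moves chromosomes to the spindle equator, stood at 43.04 FPKM in the RIP against 24.7 in the input (0.78). CENPF, a very large coiled-coil protein, stood at 100.5 and 71.4 FPKM (0.49).

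The 6 spindle checkpoint mRNAs covered nearly the whole range of the members, from -0.85 to 1.05. BUB1B, which encodes the checkpoint inhibitor BUBR1, stood at 73.5 FPKM in the RIP against 35.0 in the input, a log2 ratio of 1.05. MAD2L1, which encodes the MAD2 protein that joins BUBR1 in the same inhibitor, stood at 29.2 FPKM in the RIP against 53.6 in the input, a ratio of -0.85. The mRNAs of these partner proteins were thus at opposite ends of the group. MAD1L1, the kinetochore receptor of MAD2, stood at 38.1 and 21.0 FPKM (0.83), and BUB3, the adaptor of BUB1 and BUBR1, at 152 and 119.9 FPKM (0.34). The kinases BUB1 and TTK lay near 0. BUB1 stood at 45.97 and 44.5 FPKM (0.04, turning negative after either scaling), and TTK, also known as MPS1, at 38.4 and 40.5 FPKM (-0.07).

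Of the chromosomal passenger complex, which corrects faulty attachments and later guides cytokinesis, 3 of 4 mRNAs were higher in the RIP, with a median ratio of 0.57. The scaffold INCENP stood at 50.9 FPKM in the RIP against 28.5 in the input (0.82). The kinase AURKB stood at 149 and 98.4 FPKM (0.59), and CDCA8, which encodes borealin, at 28.6 and 19.3 FPKM (0.55). BIRC5, which encodes survivin, was level at 48.6 and 50.04 FPKM (-0.04).

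Among the 5 mRNAs of mitotic kinases and cyclins 2 were higher in the RIP and 3 lower, with a median of -0.12. CCNB1, the main mitotic cyclin, stood at 143 FPKM in the RIP against 82.4 in the input (0.79), while its catalytic partner CDK1 stood at 58.1 and 80.1 FPKM (-0.46). The related cyclin CCNB2 stood at 32.8 and 35.8 FPKM (-0.12). PLK1, a kinase that acts from mitotic entry to exit, stood at 34.8 and 23.3 FPKM (0.56). AURKA, the centrosomal Aurora kinase, stood at 28.6 FPKM in the RIP against 37.7 in the input (-0.38), whereas AURKB, named above, had a ratio of 0.59.

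The 3 mRNAs of anaphase onset had ratios above 0, though that of PTTG1 turned negative after centring on the median gene. ESPL1, which encodes separase, the protease that cuts cohesin, stood at 50.1 FPKM in the RIP against 24.5 in the input, a log2 ratio of 1.00. PTTG1, which encodes securin, the inhibitor of separase, stood at 101 and 92.9 FPKM (0.12). CDC20, the activator of the anaphase-promoting complex, stood at 57.7 and 44.3 FPKM (0.37).

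Of the 7 mRNAs for spindle, centrosome and cytokinesis proteins 6 had ratios above 0 (5 after either scaling, where ASPM turns negative), with a median of 0.38. PRC1 stood at 536 FPKM in the RIP against 242 in the input, a log2 ratio of 1.15 and the highest of all members. TPX2, an activator of AURKA on spindle microtubules, stood at 74.7 and 52.5 FPKM (0.50), and NUSAP1, a microtubule bundler, at 146 and 109 FPKM (0.42). CENPJ, a centriole protein despite its name, stood at 23.6 and 17.9 FPKM (0.38). ANLN, which encodes anillin of the cleavage furrow, stood at 61.8 and 49.96 FPKM (0.30). ASPM, a spindle pole protein, was level at 37.6 and 36.5 FPKM (0.04). MZT1 stood at 6.78 FPKM in the RIP against 16.7 in the input, a ratio of -1.19 and the lowest of all members.

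**Figure D2:**
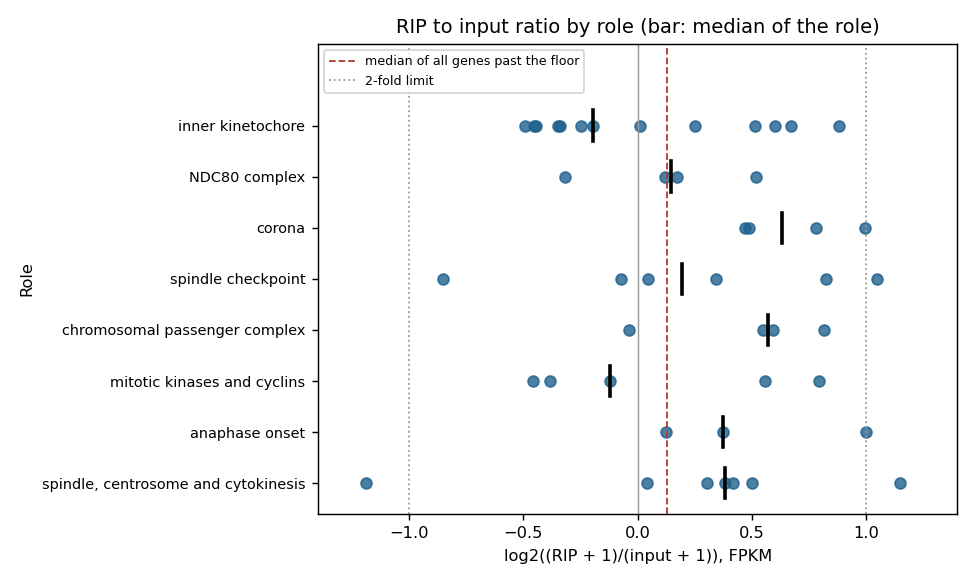
The log2 ratio of RIP to input for each mRNA (points), by role, with the median of the role as a bar, the median of all genes past the floor as a dashed line and the 2-fold limits as dotted lines. The 4 corona mRNAs lie between 0.47 and 0.99, while the 6 checkpoint mRNAs run from -0.85 to 1.05.

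On the deposited scale, only PRC1 of the 4 members past the 2-fold limit kept clear of it within counting error. The lower bound of its 95% counting interval was 1.12, while the intervals ran from 0.97 to 1.12 for BUB1B, from 0.93 to 1.07 for ESPL1 and from -1.38 to -0.99 for MZT1. KNTC1, just under the limit, had 0.96 to 1.03. These intervals rest on the estimated depths and the principal transcript length and leave out the spread between experiments. They also hold for the deposited scale alone. Centring on the median gene brought PRC1 to 1.02, close to the limit, and MZT1 to -1.32, further past it. Which member keeps clear of the limit therefore depends on the scale. On the deposited scale the counting intervals of 38 of the 46 members did not include 0. The share over all genes was not computed, so this count is not a trait of the members.

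The longer the coding part of a member, the higher its ratio tended to be. Among the 46 members the ratio went with the coding length of the principal transcript (Spearman's rho 0.61, Pearson's r 0.63 on log10 length) and with its number of exons (rho 0.62). Both features are nearly the same ordering here, with a rho of 0.95 between them. Over the 10431 other coding genes past the floor rho was 0.51 for coding length and 0.57 for exons, also positive, and whether the members differ from them was not tested. All genes share the same pair of libraries, so these correlations across genes describe those libraries. The length of the whole transcript gave rho 0.37 among members, the length outside the coding part -0.21, the GC content of the coding part 0.07 and the input level 0.04.

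**Figure D3:**
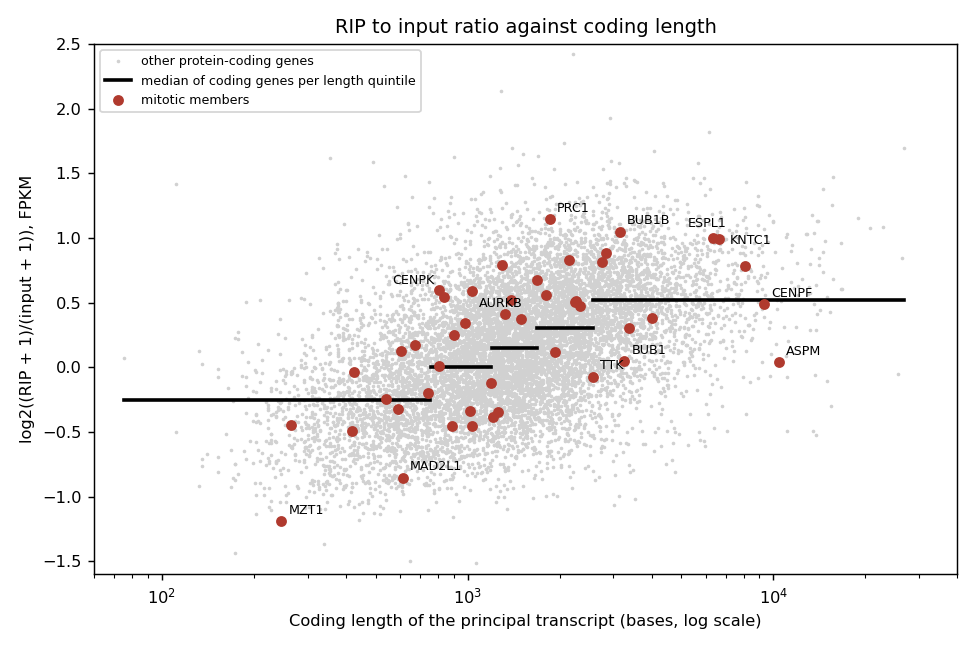
The log2 ratio of RIP to input against coding length in bases on a log axis, for the 46 members (large points) and 10431 other coding genes past the floor (small points), with the median of each quintile of coding length as a bar. The bars climb from -0.25 to 0.52. The members tend to climb with them, from MZT1 at -1.19 to BUB1B, ESPL1 and KNTC1 near 1. The members with the longest coding parts, ASPM at 0.04 and CENPF at 0.49, lie lower.

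By quintile of coding length over all coding genes past the floor, the median ratio ran from -0.25 for coding parts of 75 to 756 bases to 0.52 for those of 2580 bases or more. The members' medians ran from -0.28 (10 members) through 0.13 (10), 0.42 (7) and 0.51 (8) to 0.78 (11). In the shortest quintile 8 of 10 members had ratios below 0, the exceptions being PTTG1 and SPC25. In the longest, 0 of 11 were below 0 on the deposited scale, but ASPM and BUB1 turned negative after either scaling (-0.09 and -0.08 after centring). PTTG1 did so after centring. The share of all coding genes below 0 in these quintiles was not computed, so these counts have no background beside them. The share of coding genes at least 2-fold higher was 0.762% in the shortest quintile and 9.33% in the longest, where BUB1B and ESPL1 belong, and 3.81% in the quintile of PRC1. At least 2-fold lower were 1.57% of the shortest quintile, where MZT1 belongs. Against the median of its own quintile, 27 members were higher and 19 lower, with a median difference of 0.20.

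Some members stood well off the median of their quintile of coding length. The quintiles are wide, and a member's place within its own is not taken into account. PRC1, with 1860 coding bases, lay 0.85 above the median of its quintile, and CCNB1 with 1299 lay 0.64 above. CENPK, AURKB and CDCA8, each of 807 to 1032 coding bases, lay 0.59, 0.59 and 0.54 above. On the other side, MZT1 and MAD2L1 differed from their quintile's median by -0.94 and -0.61. ASPM has the longest coding part of all members at 10431 bases, yet its ratio of 0.04 differed from its quintile's median by -0.48. For BUB1, of 3255 coding bases, the difference was -0.47, for CENPU, of 1254, it was -0.50, and for AURKA, of 1209, it was -0.53. The inner kinetochore, with mostly short coding parts, and the corona, with 2337 to 9342 bases, therefore differ in length as well as in role, and length and role cannot be told apart.

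Among partner proteins with ratios on opposite sides of 0, some differed widely in coding length and others did not. BUB1B has 3150 coding bases and MAD2L1 615. CENPT has 1683 and CENPW 264, and CCNB1 has 1299 and CDK1 891. CENPK and CENPH, however, are nearly alike with 807 and 741 coding bases, and so are SPC25 and SPC24 with 672 and 591. Between the related kinases the order is reversed: AURKA has 1209 coding bases and a lower ratio than AURKB, which has 1032.

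Gene overlap and copies bear on some of these values. In GENCODE 12 members overlap another gene of the table, among them PRC1, whose antisense gene PRC1-AS1 stood at 4.10 FPKM in the RIP against 8.41 in the input. CENPA overlaps SLC35F6 on the same strand, which stood at 8.83 FPKM in the RIP against 10.5 in the input, not far below CENPA itself. CENPN and ASPM also overlap a gene on their own strand. The kit marks strand per the labels, but the counting setting is not given in the sources used here. GENCODE also annotates the readthrough gene BUB1B-PAK6, and 9 members, MZT1 among them, have named pseudogenes whose fragments could be assigned to either copy. Neither the readthrough gene nor any of these pseudogenes has a value in the deposited table. Without the 12 overlapping members, a setting chosen after seeing the data, the median ratio was 0.40.

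Apart from the ratio, some promoter motifs were more frequent among the members than among other genes. Genes expressed late in the cell cycle often carry a CHR element (cell cycle genes homology region), bound by the DREAM and MuvB complexes, near their start site, along with CCAAT boxes bound by NF-Y. RefSeq promoter windows of 300 bases (250 before to 50 after the start site, GRCh38.p14) were matched for 36 members. The CHR letters TTTGAA or their reverse complement TTCAAA were found in 23 of these 36 (63.9%), against 13.5% of 8396 other genes past the floor. CCAAT or ATTGG was found in 27 of 36, against 44.3% of the other genes. Within the 40 bases before the start site, a window chosen after the positions were seen, TTTGAA on the coding strand was present in 11 of 36 members (30.6%) and 1.07% of the other genes. A match of letters is not a shown binding site.

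For 8 of these 11 the match begins 18 to 31 bases before the start site, bounds set after the positions were seen. Their like distances therefore follow from the choice. In SPC25, INCENP and CDK1 the match within the window begins at -3, -10 and -13 bases. The ratios of the 8 mRNAs run from -0.49 to 1.15, and their promoter stretches are shown as examples. Each is 30 bases, 5′ to 3′ on the gene's strand, with the CHR letters in capitals:
PRC1 (chr15:90994538-90994567, minus strand): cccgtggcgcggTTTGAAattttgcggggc
BUB1B (chr15:40161034-40161063, plus strand): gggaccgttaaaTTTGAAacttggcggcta
ESPL1 (chr12:53268256-53268285, plus strand): cagccgcggataTTTGAAaggagggtctgg
CDCA8 (chr1:37692481-37692510, plus strand): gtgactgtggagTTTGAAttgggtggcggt
PLK1 (chr16:23678848-23678877, plus strand): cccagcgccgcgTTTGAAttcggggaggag
ANLN (chr7:36389830-36389859, plus strand): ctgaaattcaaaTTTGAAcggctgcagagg
CCNB2 (chr15:59105105-59105134, plus strand): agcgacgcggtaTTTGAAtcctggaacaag
CENPA (chr2:26786026-26786055, plus strand): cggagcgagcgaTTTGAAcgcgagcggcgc

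**Figure D4:**
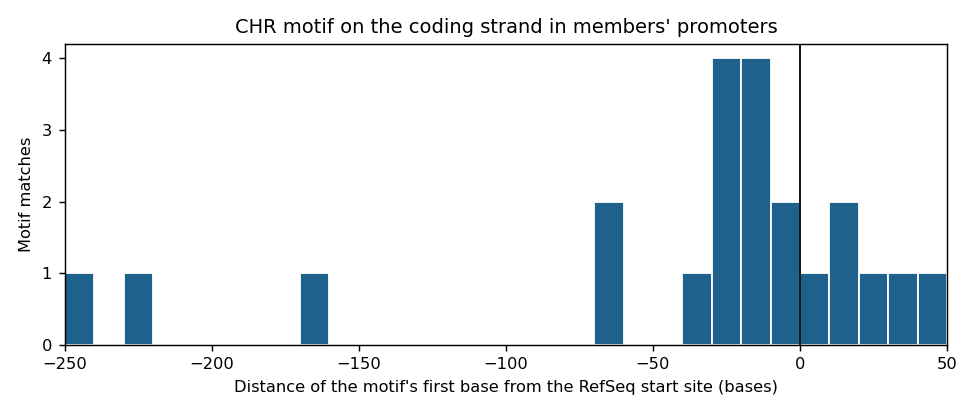
Number of CHR motif matches on the coding strand in the promoter windows of 36 members, by distance of the motif's first base from the RefSeq start site in bases (bins of 10 bases, start site at 0). Of 22 matches in 19 members, 8 begin 18 to 31 bases before the start site and 6 lie after it.

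Members with the CHR letters on either strand had a median log2 ratio of 0.37 (23 members), and those without had 0.51 (13 members). These groups overlapped widely, since MZT1 and PRC1, the lowest and highest of all members, both carry the letters. With CCAAT on either strand the median was 0.17 (27 members), and without it 0.52 (9 members). Neither difference was tested.

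The other genes of the mitotic pathway were read from a list of 65, of which 63 were in the table and all 63 past the floor. Their median ratio was 0.09 (-0.03 after centring on the median gene), with 35 above 0, 1 at least 2-fold higher and 1 at least 2-fold lower. The highest was CIT, citron kinase of the midbody, at 67.0 FPKM in the RIP against 25.2 in the input (1.38). TACC3, which binds spindle microtubules with clathrin, stood at 63.2 and 31.8 FPKM (0.97), and the anaphase-promoting complex subunits ANAPC7 and ANAPC4 had ratios of 0.93 and 0.84. The lowest was ANAPC16, a small subunit of that complex, at 16.0 and 35.3 FPKM (-1.10). MIS12, which connects the inner kinetochore to the NDC80 complex, stood at 18.4 and 37.3 FPKM (-0.98). OIP5, a loading factor for CENPA, stood at 6.85 and 11.7 FPKM (-0.70), and SGO2, a protector of centromeric cohesin, at 9.84 and 15.3 FPKM (-0.59). Coding length and ratio went together here as well, with rho 0.50 over the 63 genes, although SGO2, with 3795 coding bases, goes against that order. Against the median of their own quintile of coding length, 30 were higher and 33 lower. The median difference was -0.01, against 0.20 for the members, and this contrast was not tested. Both sets were chosen with earlier results of these data known, so the contrast is a description only.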

How the data were processed

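RNA of 1 FLAG RIP and 1 input library of HEK293 cells expressing R338W TOP3B was compared. Tools named in the submitters' processing notes are RSEM 1.2.31, STAR 2.6.1, Trimmomatic 0.3 and cutadapt 1.18, with the build hg38. Their order and settings, the annotation and any low-value filter are not stated there. The authors deposited 1 value per gene and library, and the unit, which the table does not name, was taken as FPKM because the columns sum to 1090243 (RIP) and 1512049 (input). FPKM depends on the library total, so abundant RNAs lower all other genes.

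The ratio was log2((RIP + 1)/(input + 1)), over genes with at least 5 FPKM in 1 library, and a 2-fold limit described it. There was no test, since each group had 1 library. Depth was searched for as the value at which genes with 1 transcript hold whole fragments. At the best fit a whole fragment, to a tolerance of 0.15, was reached by 53.8% of 117 RIP genes and 62.3% of 199 input genes, so depths are rough. Ensembl identifiers matched GENCODE 29 (GRCh38) for 12983 of 13075 genes (99.3%). The principal transcript was the best APPRIS-tagged coding one. Ratio and depth scripts were tested on simulated data. Members and lists were chosen with earlier results of these data known. All members, the 4 highest and 4 lowest other pathway genes and TOP3B are named by rule, and APC/C genes were added. Calculations used Python 3.11.15, numpy 2.4.6, pandas 2.3.3, scipy 1.17.1 and matplotlib 3.10.9.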

Additional observations from a re-analysis of the deposited data

How the results depend on the processing

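No paired analysis was possible because a single library stands in either group. Scaling by TMM or by size factors needs counts and was left out. The 3 higher and 1 lower members became 1 and 0 with pseudocount 5, 12 and 2 at a 1.5-fold limit, and 0 and 0 at a 4-fold limit. Either scaling, centring on the median gene or leaving out abundant RNA classes, gave 1 higher member, PRC1. The shift of -0.16 without RMRP and RPPH1 would take PRC1 just under the limit and MAD2L1 just past the lower limit. A floor of 20 FPKM left 42 members and 0 lower, since MZT1 lies under it, and turned the inner kinetochore median from -0.20 to 0.01. A pseudocount of 0.1 gave 4 higher members, with KNTC1 (1.00) added, and 1 lower, against 745 and 365 over all genes. Without a pseudocount, a setting chosen after seeing the data, 4 were higher as well. Centring moved every ratio by -0.13 and rescaling by about -0.08. Over all genes, 588 higher and 300 lower genes with a median of 0.13 became 300, 180 and 0.10 with pseudocount 5, 352, 157 and 0.21 with a floor of 20 FPKM, and 375, 44 and 0.15 for coding genes. Centring gave 365 higher genes and a median of 0.00, and rescaling a median of 0.06. A 1.5-fold limit gave 2386 and 1222, and a 4-fold limit 79 and 84. The rho of 0.61 was 0.37 with principal transcript length in place of coding length, also chosen after seeing the data. Depth limits MZT1, CENPA, CENPL, CENPW and CENPM most among members.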

Other observations

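The anaphase-promoting complex, the ubiquitin ligase that the spindle checkpoint holds back, was measured through 14 subunits of the pathway list. Their median log2 ratio was 0.34, with 9 above 0, 0 at least 2-fold higher and 1 at least 2-fold lower. ANAPC7 stood at 113 FPKM in the RIP against 59.2 in the input, and ANAPC5 at 116 and 75.8. ANAPC16, with a coding part of 330 bases, is the subunit past the limit.

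By number of exons, the median ratio of coding genes past the floor ran from -0.22 for 1 to 5 exons to 0.55 for 19 exons or more. On the deposited scale all 7 members with up to 5 exons had ratios below 0, and in the group of 19 or more exons 1 of 11 did, TTK. BIRC5, among the 7, was near 0 with a counting interval of -0.12 to 0.04. After either scaling ASPM and BUB1, both with 19 or more exons, were below 0 too. The share of all coding genes below 0 in these exon groups was not computed.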
